A study of Mus musculus with 22 samples.

Results

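The genes described here are 36 listed genes of cholesterol synthesis, its control, and cholesterol transfer and export in mouse spinal cord. A gene was measured where the platform annotation gives a probe set its symbol alone, and the brightest such probe set over all arrays stands for it. By that rule 33 of the 36 were measured, out of 18193 genes tested. Acat2, Nr1h2 and Soat1 were not matched to a probe set, and their signals are not analysed here. RNA came from C57Bl/6 wild-type mice 10 to 12 weeks old, from the cord below T6 (caudal) and above T6 (rostral), and was hybridised to 22 Affymetrix arrays. The groups were caudal cord 48 h (4 arrays) and 24 h (3 arrays) after 7.5 min of aortic clamping, caudal cord after sham surgery (3 arrays), rostral cord 48 h (4 arrays) and 24 h (3 arrays) after the same clamp, and rostral cord after sham surgery (4 arrays). One more rostral array, 276, is labelled 48 h in one field and 24 h in another and was left out of the groups. In the text, values of several arrays follow the numbers in their titles, which are 271 to 274 for 48 h, 281 to 283 for 24 h, 278 to 280 for caudal sham and 277 to 280 for rostral sham.

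Cells make cholesterol from acetyl-CoA through mevalonate, squalene and lanosterol. The transcription factor SREBP-2 (Srebf2) turns on the genes of these enzymes when the endoplasmic reticulum runs low in sterol. Scap carries SREBP to the Golgi for cleavage, and the Insig proteins hold it back. The liver X receptors (LXR, here Nr1h3) sense oxysterols and turn on the exporters Abca1 and Abcg1, the lipid transfer protein Pltp, Srebf1, and Mylip, a ligase that removes lipoprotein receptors. The cord relies on cholesterol made locally, because plasma lipoproteins do not cross the blood-brain barrier, and myelin holds much of it. The comparisons ask how these transcripts differ after clamping at 24 h and 48 h, above and below T6, and how the SREBP-driven enzymes stand beside the LXR-driven exporters.

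Promoter windows of Mvd, Cyp51, Lss and Dhcr7, whose transcripts fell in rostral cord at 48 h, are shown because SREBP acts on such promoters beside the factor NF-Y, which reads the letters CCAAT. Hmgcs1 is shown with them as the only synthesis gene with a match to the sterol regulatory element searched for. The sequences are from RefSeq (GRCm38.p6), written 5′ to 3′ in the direction of the gene, and end at the base before the annotated transcription start. Capitals mark CCAAT on either strand and TCACNCCAC, the form of the sterol regulatory element searched for. For Dhcr7, which has several annotated starts, the window given is the one of its 3 with CCAAT.
Mvd (chr8:122443423-122443672, minus strand): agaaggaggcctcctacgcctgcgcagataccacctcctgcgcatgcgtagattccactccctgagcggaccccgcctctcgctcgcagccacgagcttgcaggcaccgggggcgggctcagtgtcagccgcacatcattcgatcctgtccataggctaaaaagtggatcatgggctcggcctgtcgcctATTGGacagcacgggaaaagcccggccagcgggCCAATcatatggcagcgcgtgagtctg
Cyp51 (chr5:4104698-4104947, minus strand): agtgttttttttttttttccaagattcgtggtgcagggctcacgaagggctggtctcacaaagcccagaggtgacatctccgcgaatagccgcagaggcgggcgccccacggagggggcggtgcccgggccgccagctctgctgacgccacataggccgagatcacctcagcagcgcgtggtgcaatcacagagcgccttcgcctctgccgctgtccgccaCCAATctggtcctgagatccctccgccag
Lss (chr10:76531355-76531604, plus strand): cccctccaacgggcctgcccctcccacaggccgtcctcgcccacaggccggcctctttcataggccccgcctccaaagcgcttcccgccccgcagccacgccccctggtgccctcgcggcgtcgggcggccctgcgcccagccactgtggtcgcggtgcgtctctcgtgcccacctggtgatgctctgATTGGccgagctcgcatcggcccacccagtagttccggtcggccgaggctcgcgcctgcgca
Dhcr7 (chr7:143829964-143830213, plus strand): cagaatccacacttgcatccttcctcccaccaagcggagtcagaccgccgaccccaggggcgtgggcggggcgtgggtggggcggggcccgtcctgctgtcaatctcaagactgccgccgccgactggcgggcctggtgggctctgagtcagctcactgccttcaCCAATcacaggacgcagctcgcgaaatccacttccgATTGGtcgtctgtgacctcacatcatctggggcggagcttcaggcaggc
Hmgcs1 (chr13:119690101-119690350, plus strand): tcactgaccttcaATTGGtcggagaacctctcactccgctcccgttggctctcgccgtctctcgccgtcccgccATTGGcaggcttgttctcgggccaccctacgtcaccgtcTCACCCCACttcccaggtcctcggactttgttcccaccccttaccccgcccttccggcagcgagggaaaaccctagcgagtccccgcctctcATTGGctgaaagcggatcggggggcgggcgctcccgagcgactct
The table of windows, which run from 250 bases before to 50 bases after a start, held 28 of the 36 members. CCAAT, on either strand, stood in a window of 14 of 15 synthesis genes (93.3%) and of 2 of 5 LXR genes, against 11095 of 27018 genes in all (41.1%). These sets differ from the measured ones. Acat2, the synthesis gene without CCAAT, and Nr1h2 are counted here though their signals were not measured. Fdps, Fdft1, Sqle and Abcg1 were measured but had no window. The form TCACNCCAC of the sterol regulatory element stood in 1 of 15 synthesis genes (6.67%), against 1.44% of all genes. Looser forms of the element were not searched for, so a gene without a match may still hold one. The letters GGTCA repeated in the same direction with 4 bases between stood in 0 of 5 LXR genes, against 0.0518% of all genes. That spacing is shorter than in the LXR element, which was therefore not counted. The motifs overlap nowhere in the sequences shown. These matches describe letters and not binding.

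Signals are log2 RMA values made by the authors, with array medians between 6.79 and 6.88. Differences were tested with limma over all 18193 genes, p-values were adjusted by the Benjamini-Hochberg method across that whole set, and a gene is said to have risen or fallen where its adjusted p was under 0.05. The error after a difference is its standard error (SE), and n counts arrays. Some arrays stood apart. Caudal 48 h array 271 had the narrowest spread of signals (SD 2.05, against 2.21 to 2.27 on the others). The Gapdh control was lower at its 5′ than at its 3′ end by −1.05 on caudal 48 h array 274 and by −0.68 on caudal sham array 280, against −0.21 to 0.04 on the other 20 arrays. Both arrays numbered 283 went against their region labels: Hoxc10, a gene of posterior identity, was 5.67 on the one labelled caudal and 10.14 on the one labelled rostral, against 9.19 to 10.48 on the other 9 caudal and 5.32 to 6.22 on the other 11 rostral arrays. Heart muscle genes were high on the rostral 48 h arrays. The labelled tissue showed its own markers in every group, with the mean signal of 9 neuron genes between 11.47 and 12.74 and that of 10 myelin genes between 11.62 and 12.31.

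In rostral cord 48 h after clamping, 5 of the 17 measured cholesterol synthesis enzymes fell and 0 rose: Lss, Dhcr7, Mvd, Fdft1 and Cyp51. Over all genes, 0.143% fell in this comparison and 0.467% rose. All 17 differences were below 0, with a median of −0.40 and a range of −0.73 to −0.18, while the median of all genes was −0.02 and 58.2% of them lay below 0. For 15 of the 17 enzymes every rostral 48 h array lay below every rostral sham array, a separation found for 7.46% of all genes. Hmgcs1 and Pmvk overlapped.

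Lss, the synthase that closes squalene epoxide into lanosterol, had the smallest p of the members. Its log2 signal was 8.19, 8.24, 8.09 and 8.39 on rostral 48 h arrays, against 8.85, 8.85, 8.85 and 8.90 on rostral sham arrays. The 2 groups lay far apart, and the difference was −0.63 ± 0.07 (SE, adjusted p = 4.94e-05), so that the signal fell by 35.6%. Dhcr7, a reductase of the last steps, had 8.56, 8.66, 8.72 and 9.10 in rostral cord at 48 h, against 9.52, 9.61, 9.41 and 9.43 in rostral sham. Array 274 was the highest of the 4 clamped arrays and still below every sham array, and the difference was −0.73 ± 0.13 (adjusted p = 0.00659). Mvd, the decarboxylase that yields isopentenyl diphosphate, was 7.81, 7.90, 7.999 and 8.06 at 48 h, against 8.59, 8.67, 8.601 and 8.39 in sham. Every clamped array lay below the lowest sham array, and the difference was −0.62 ± 0.11 (adjusted p = 0.00967). Cyp51, the demethylase that acts on lanosterol, gave 9.51, 9.69, 9.72 and 9.97 at 48 h, against 10.33, 10.32, 10.27 and 10.32 in sham. Its sham arrays lay close together, array 271 was lowest after clamping, and the difference was −0.59 ± 0.13 (adjusted p = 0.0344). For Fdft1, squalene synthase and the first enzyme committed to sterols, the values were 10.37, 10.47, 10.51 and 10.46 at 48 h, against 10.85, 10.88, 10.93 and 10.74 in sham. The groups did not overlap and the difference was −0.40 ± 0.08 (adjusted p = 0.0285).

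The other mevalonate and squalene enzymes lay lower by similar amounts without passing the test over all genes. Idi1, the isomerase of isopentenyl diphosphate, had 10.23, 10.52, 10.45 and 10.70 on rostral 48 h arrays, against 10.95, 10.98, 10.85 and 10.98 on rostral sham arrays (−0.47 ± 0.11, adjusted p = 0.0648). No Idi1 value overlapped between the groups. Sqle, the epoxidase and a rate-limiting enzyme, had 10.53, 10.56, 10.57 and 10.81, against 11.06, 11.03, 11.03 and 10.98 (−0.40 ± 0.11, adjusted p = 0.159). Hmgcs1, which condenses the units before mevalonate, had 12.65, 12.86, 12.95 and 13.14, against 13.37, 13.33, 13.14 and 13.37, and array 274 equalled the lowest sham array to 2 decimals (−0.40 ± 0.14, adjusted p = 0.319). The synthase of farnesyl diphosphate, Fdps, differed by −0.62 ± 0.21, and the kinases Mvk and Pmvk by −0.38 ± 0.10 and −0.21 ± 0.09. Among the enzymes that trim lanosterol to cholesterol, Msmo1 differed by −0.40, Tm7sf2 by −0.30, Sc5d by −0.27, Hsd17b7 by −0.26, Ebp by −0.22 and Nsdhl by −0.18, with adjusted p-values from 0.49 to 1. In all, 14 of the 17 enzymes had an unadjusted p under 0.05, as did 1288 of the 18193 genes.

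**Figure D1:**
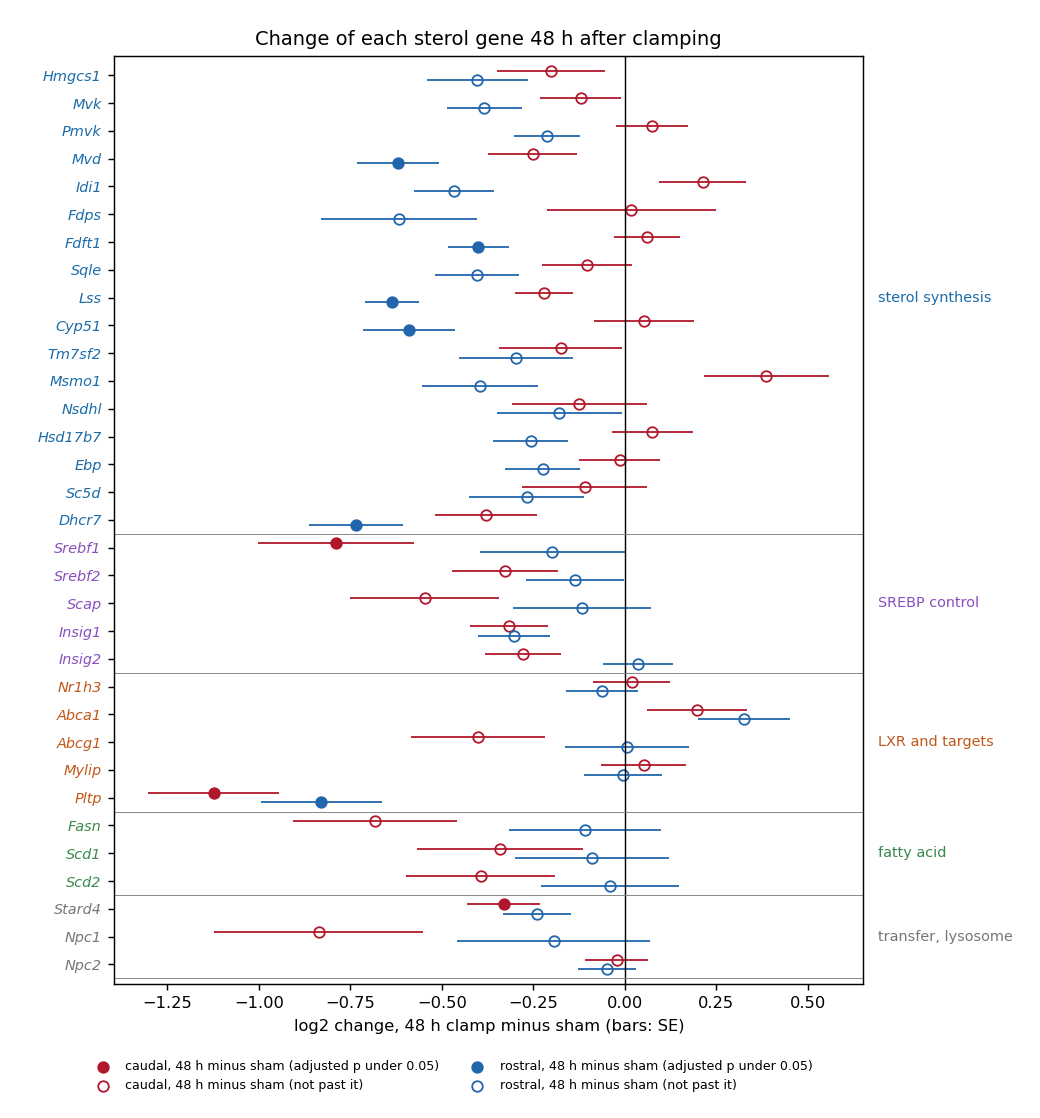
Log2 change of each measured gene 48 h after clamping minus sham (x axis, log2 units) for caudal cord (red, upper point of each gene) and rostral cord (blue, lower point). Bars are SE, and filled points have an adjusted p under 0.05; all 17 synthesis genes lie left of 0 in rostral cord, between −0.73 and −0.18, whereas the caudal points of the same genes lie on both sides, between −0.38 and 0.39.

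Other probe sets of the same enzymes were lower as well in 19 of 21 cases, over 11 genes. The second probe set of Mvd differed by −0.61 ± 0.09, and those of Cyp51 by −0.62 ± 0.12 and −0.30 ± 0.11. For Lss the other probe sets gave smaller differences, −0.27 ± 0.13 and −0.30 ± 0.17, and for Fdft1 −0.36 ± 0.09, −0.10 ± 0.11 and −0.05 ± 0.11, the last 2 at mean signals under 6. Those above 0 belonged to Hsd17b7, at 0.04 and 0.01. With the mean of all probe sets of a gene, 3 enzymes fell in rostral cord rather than 5, and Lss (−0.40, adjusted p = 0.0666) and Fdft1 (−0.23, adjusted p = 0.242) lost their calls.

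These rostral counts depended on single arrays. With its brightest probe set Lss, like Dhcr7, kept its call without any 1 of the 21 arrays, with adjusted p-values up to 0.000469 and 0.0389. Mvd lost its call without rostral sham array 278 (0.0518). Fdft1 lost it without rostral 48 h array 271, 272 or 273 or rostral sham array 277, 278 or 279 (0.0702 to 0.133), and Cyp51 without any of 12 arrays (0.0503 to 0.161), namely the same 6, rostral sham array 280, the 3 caudal sham arrays and both 24 h arrays numbered 282. The count of 5 was 3 without rostral 48 h array 271, 272 or 273 or rostral sham array 277 or 279, 2 without rostral sham array 278, and 9 without caudal 48 h array 271. In a fit of the rostral 48 h and sham arrays alone 9 enzymes fell. With array weights 14 fell, where 1850 of all genes were called in either direction, against 111 in the reported fit.

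The signals cannot tell fewer cells of a type from less RNA per cell, and lists of cell type genes were therefore read beside the enzymes. On rostral 48 h arrays 271 to 274 the median departure of the 17 enzymes from the rostral sham mean was −0.49, −0.42, −0.36 and −0.33. For 10 myelin genes it was −0.33, −0.29, −0.11 and −0.01, and 1 of the 10 fell (Opalin, −1.36 ± 0.30). Their mean signal was 11.71 to 12.22, against 12.28 to 12.31 in rostral sham. Neuron genes departed by −0.04 to 0.05 and astrocyte genes by 0.03 to 0.12, and 0 of 9 passed in either list at adjusted p-values over all genes, where 1288 genes had an unadjusted p under 0.05. No gene passed in the next 3 lists either, but microglia genes departed by −0.77 to −0.15, with 7 of 7 below 0 and 4 at an unadjusted p under 0.05, neutrophil genes by −0.88 to −0.46 and endothelial genes by −0.47 to −0.02. Oligodendrocyte precursor genes departed by −0.25 to 0.13, with 5 of 7 below 0 and 3 at an unadjusted p under 0.05. Monocyte and macrophage genes departed by 0.01 to 0.68, with 9 of 10 above 0 and 4 at an unadjusted p under 0.05. No gene of these lists passed. Of 12 heart muscle genes 11 rose, led by Myl2 (6.73 ± 0.47), and their departures were 3.76, 5.47, 4.84 and 5.06. Their mean signal lay between 9.31 and 10.80, against 5.90 to 5.96 in rostral sham. Of 6 adipocyte genes 1 rose (Fabp4, 4.17 ± 0.90), and the list's mean signal was 5.53 to 6.28, against 4.87 to 5.005. RMA values have no zero, so no marker can be said to be absent. The part of these cell types in the differences of the enzymes was not tested, and since every rostral 48 h array carried heart signal, no fit without it could be made within that group.

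Array 276, in no group, gives both measures on 1 more rostral sample. Its heart muscle genes departed by 5.07 from the rostral sham mean, within the range of the 48 h arrays, while the 17 enzymes departed by −0.15. It had 8.77 for Lss, 9.15 for Dhcr7, 8.68 for Mvd, 10.12 for Cyp51 and 10.93 for Fdft1, each above all 4 rostral 48 h arrays. Of the 17 enzymes, 10 lay below every rostral sham array on array 276, against 16 on each rostral 48 h array and 6 to 10 on the rostral 24 h arrays. Counted as a 48 h array it left 2 enzymes called, and counted as a 24 h array 5. On rostral 24 h arrays the heart muscle genes departed by −0.02 to 0.10. Array 276 is a single array of unclear time, and the part of heart tissue in its enzyme values was not tested.

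**Figure D2:**
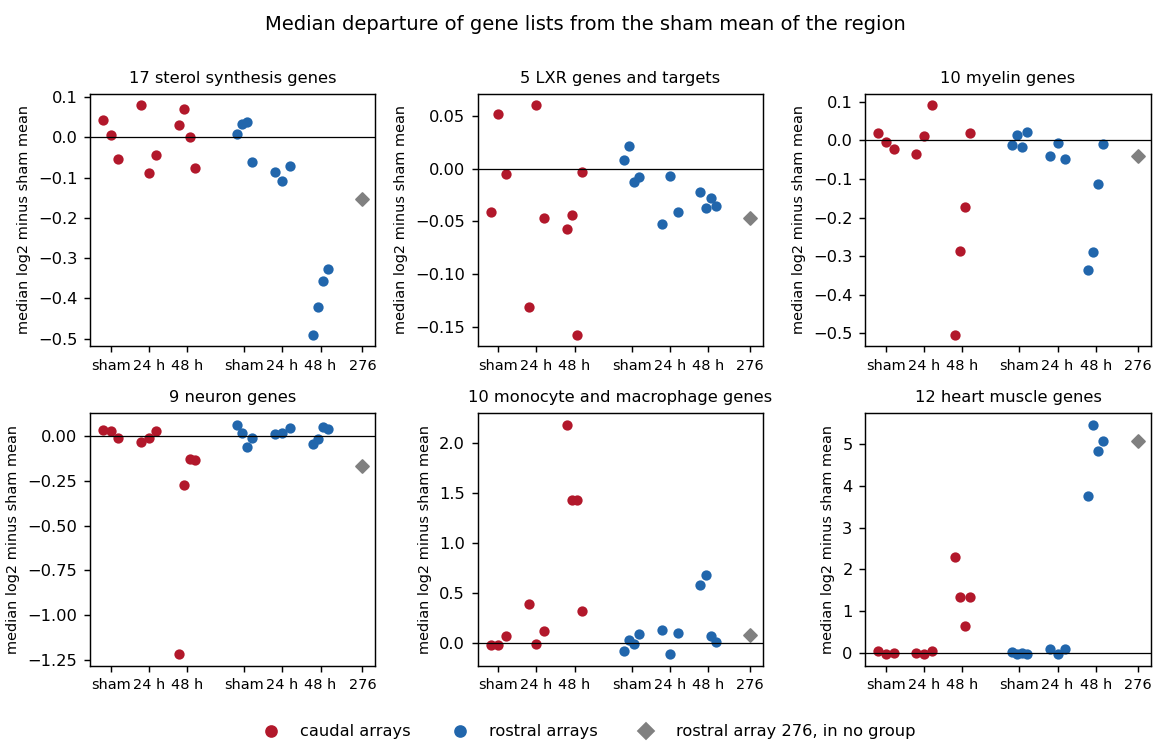
Median departure of 6 gene lists from the sham mean of the region (y axis, log2 units) for each array, by region and time, with rostral array 276 as a grey diamond. The enzyme list is low on the 4 rostral 48 h arrays (−0.49 to −0.33), where heart muscle genes are high (3.76 to 5.47); array 276 is at 5.07 for heart and −0.15 for the enzymes.

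In caudal cord at 48 h no synthesis enzyme passed the test. Of 17, 0 rose and 0 fell with limma over all genes (adjusted p from 0.0702), 3 had an unadjusted p under 0.05, and 10 lay below 0, with a median of −0.10 beside 0.00 for all genes. In this comparison 7.02% of all genes fell and 5.52% rose. Idi1 had 10.96, 11.38, 10.98 and 11.27 in caudal cord at 48 h, against 10.93, 10.998 and 10.88 in caudal sham, a difference of 0.21 ± 0.12 with a 95% interval of −0.03 to 0.46. Cyp51 had 10.83, 10.24, 10.10 and 10.57, against 10.39, 10.33 and 10.44, and its clamped arrays lay on both sides of sham (0.05 ± 0.14). Fdft1 had 11.18, 11.08, 10.89 and 11.14, against 10.96, 10.95 and 11.12, also with overlap (0.06 ± 0.09). Lss, with 8.47, 8.64, 8.63 and 8.54, against 8.75, 8.80 and 8.83, did not overlap and differed by −0.22 ± 0.08 (adjusted p = 0.0702). Dhcr7 had 8.64, 8.78, 9.09 and 9.25, against 9.37, 9.30 and 9.28, likewise without overlap (−0.38 ± 0.14, adjusted p = 0.0732). These were the 2 enzymes with every caudal 48 h array below sham, where 11.1% of all genes did the same. Mvd had 8.38, 8.15, 8.41 and 8.72, against 8.71, 8.45 and 8.84 (−0.25 ± 0.12). Hmgcs1 had 12.80, 13.41, 13.34 and 13.56, against 13.46, 13.42 and 13.55 (−0.20 ± 0.15), and Sqle 10.52, 11.20, 11.03 and 10.86, against 11.01, 11.08 and 10.93 (−0.10 ± 0.12). For both genes array 271 was the lowest caudal 48 h array. Fdps, Msmo1 and Nsdhl were low on the 2 caudal arrays whose Gapdh control was weak at its 5′ end. Fdps was 11.55, 10.998, 10.96 and 10.11, against 11.06, 11.15 and 10.44, Msmo1 11.59, 11.95, 11.65 and 11.05, against 11.37, 11.38 and 10.77, and Nsdhl 9.22, 9.57, 9.65 and 8.66, against 9.49, 9.67 and 9.04, so that array 274 was the lowest caudal 48 h array and array 280 the lowest caudal sham array for each. The part of RNA quality in these values was not tested. Other probe sets of some enzymes differed in size or sign. Those of Hmgcs1 gave −0.08, −0.11, −0.21 and, at a mean signal of 5.94, 0.54 ± 0.18. Those of Fdft1 gave 0.12 and, at mean signals of 5.97 and 5.71, 0.34 ± 0.12 and 0.29 ± 0.12. For Sc5d they gave −0.64 ± 0.22 and 0.23 ± 0.12, beside −0.11 for its brightest.

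Set side by side within 48 h, caudal cord was above rostral cord for 7 of 17 enzymes and below it for 0, where 9.71% of all genes were called, 5.57% higher and 4.14% lower in caudal cord. They were Fdft1 (0.62 ± 0.08, adjusted p = 0.000194), Idi1 (0.68 ± 0.11, adjusted p = 0.000793), Cyp51 (0.71 ± 0.13, adjusted p = 0.00157), Hsd17b7 (0.50), Lss (0.34), Mvd (0.47) and Pmvk (0.36). For these 7 every caudal 48 h array lay above every rostral one, as it did for 5.23% of all genes, and for 2 members every caudal array lay below, as for 6.26% of all genes. The other probe sets of Lss did not follow, at −0.05 and −0.14, and the mean of its probe sets differed by 0.05 (adjusted p = 0.721). Pmvk lost its call without rostral array 274 (adjusted p = 0.0638), the other 6 kept theirs without any 1 array, and in a fit of these 2 groups alone 0 members were called, with 93 of all genes called by limma. In the same comparison 11 of 12 heart muscle genes and 3 of 9 endothelial genes were lower in caudal cord, and 4 of 5 Schwann cell, 5 of 10 monocyte and macrophage and 4 of 6 neutrophil genes were higher. Their part in the regional differences was not tested. Schwann cell genes differed between the regions in sham too, with 3 of 5 higher in caudal cord and a median difference of 1.65, against 1.63 at 48 h. In sham the regions differed for 0 of 33 members over all genes, where 0.335% of genes were called and 1003 genes had an unadjusted p under 0.05. Msmo1 came nearest, with 11.37, 11.38 and 10.77 in caudal and 11.54, 11.73, 11.71 and 11.55 in rostral sham, where caudal array 280 is the one with the weak Gapdh 5′ end (−0.46 ± 0.17, adjusted p = 0.641).

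The difference between regions in the 48 h clamp effect, the caudal change minus the rostral change, was above 0 for all 17 enzymes, with a median of 0.33 beside 0.02 for all genes. None of the 33 members passed limma's test of that difference, which called 0.561% of genes, although 8 enzymes and 9 members had an unadjusted p under 0.05, as did 2228 of all genes. Idi1 came nearest, with 0.68 ± 0.16 (SE, adjusted p = 0.0641), followed by Lss (0.41 ± 0.11, adjusted p = 0.103) and Fdft1 (0.46 ± 0.12, adjusted p = 0.112). The other probe sets of Lss did not follow, at 0.03 ± 0.19 and −0.02 ± 0.26. Those of Fdft1 gave 0.39, 0.39 and 0.47, and that of Idi1 gave 0.70. Idi1 passed with arrays centred on their median (0.0477), with quantile normalization repeated (0.0419) and with array weights (0.00521). The count of 0 was 5 without caudal array 274, 2 without caudal array 271, and 1 without caudal array 273 or rostral array 274.

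**Figure D3:**
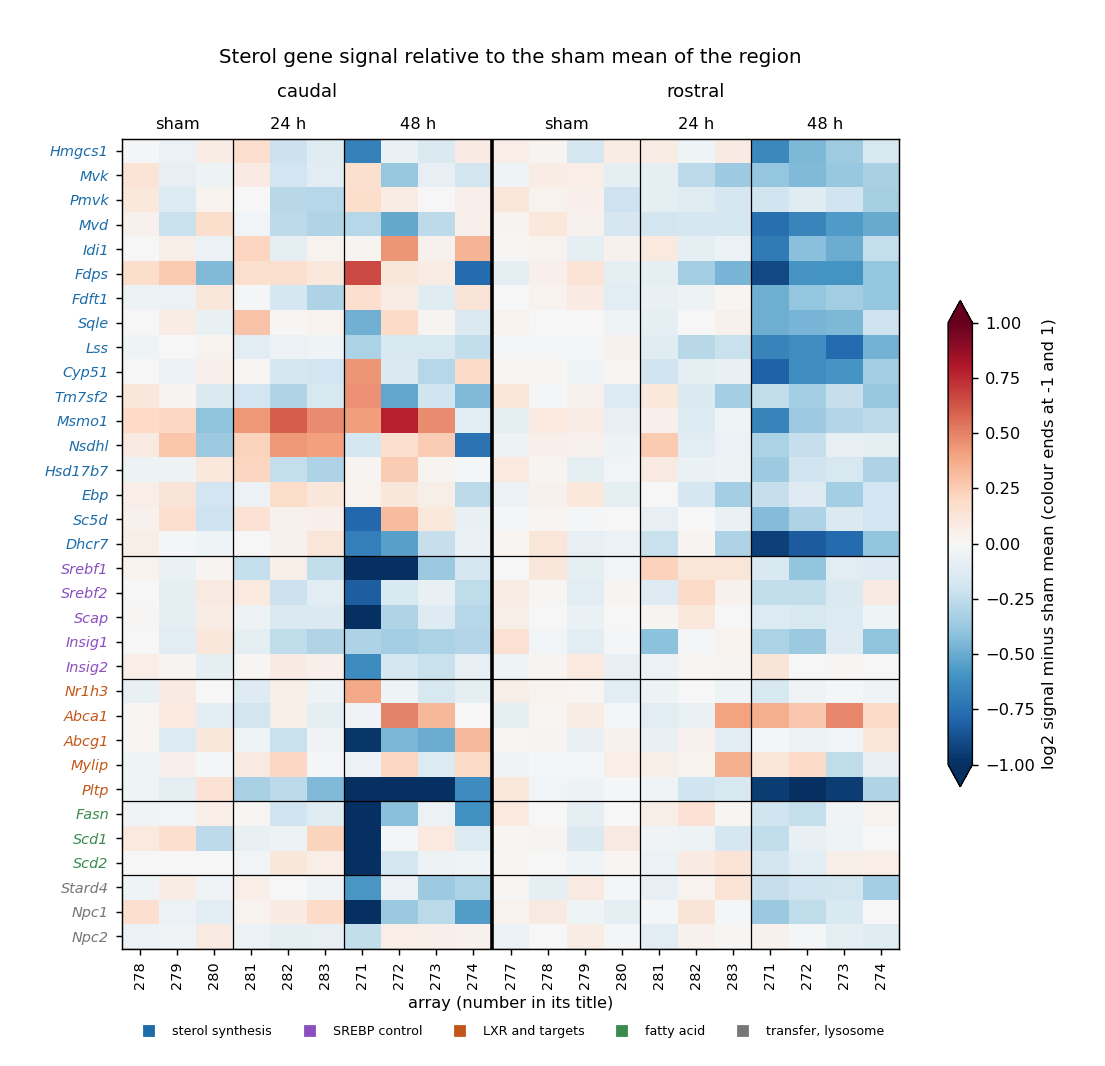
Signal of each measured gene on each grouped array minus the sham mean of its region (colour, log2 units, ending at −1 and 1), with arrays in columns by region and time and genes in rows by role. The rostral 48 h columns are blue over nearly all synthesis rows, with median departures of −0.49 to −0.33, and caudal array 271 is dark blue over the fatty acid rows.

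At 24 h 0 of 33 members rose or fell in either region by limma over all genes. In rostral cord 0% of genes were called and 2 members, Mvk and Lss, had an unadjusted p under 0.05, as did 142 of all genes. In caudal cord 0.0055% were called and 1 member, Msmo1, had an unadjusted p under 0.05, as did 528 of all genes. Lss had 8.74, 8.59 and 8.64 on rostral 24 h arrays, against 8.85 to 8.90 on rostral sham arrays, all below sham but above every rostral 48 h array (−0.21 ± 0.08, 95% interval −0.37 to −0.04). For 3 enzymes every rostral 24 h array lay below sham and for 1 other member above it, where 4.35% and 3.47% of all genes did so. In caudal cord 4 members lay wholly below and 1 wholly above sham, beside 10.5% and 8.65% of all genes. The median over the 17 enzymes was −0.12 in rostral and −0.06 in caudal cord. Each of these 24 h groups holds an array numbered 283. On rostral 24 h arrays Dhcr7 was 9.27, 9.52 and 9.18, Mvd 8.38, 8.39 and 8.39, Cyp51 10.11, 10.22 and 10.24, Fdft1 10.78, 10.80 and 10.87 and Idi1 11.04, 10.85 and 10.88. Of these 5 genes, each 24 h value lay above every rostral 48 h value. On caudal 24 h arrays Msmo1 was 11.61, 11.78 and 11.65, above every caudal sham array (0.51 ± 0.18, adjusted p = 1).

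The other values at 24 h complete those given array by array. On caudal 24 h arrays Lss was 8.68, 8.74 and 8.75, Dhcr7 9.31, 9.36 and 9.44, Mvd 8.64, 8.41 and 8.37, Cyp51 10.40, 10.22 and 10.19, Fdft1 10.99, 10.83 and 10.70 and Idi1 11.15, 10.85 and 10.97. Hmgcs1 had 13.65, 13.26 and 13.36 in caudal and 13.38, 13.26 and 13.38 in rostral cord, and Sqle 11.29, 11.02 and 11.04 in caudal and 10.93, 11.03 and 11.06 in rostral cord. For Sqle and Hmgcs1 caudal array 281 was the highest of its group. Among regulators, Srebf1 had 9.90, 10.20 and 9.89 in caudal and 10.23, 10.12 and 10.12 in rostral cord, Srebf2 10.22, 9.91 and 10.01 in caudal and 9.86, 10.18 and 10.03 in rostral cord, and Insig1 10.08, 9.93 and 9.88 in caudal and 9.55, 9.94 and 10.001 in rostral cord. Srebf1 was the member whose rostral 24 h arrays all lay above sham. Among LXR genes, Nr1h3 had 6.96, 7.15 and 7.04 in caudal and 7.03, 7.07 and 7.04 in rostral cord, Abca1 9.91, 10.16 and 9.99 in caudal and 9.81, 9.86 and 10.32 in rostral cord, and Abcg1 10.32, 10.14 and 10.33 in caudal and 10.21, 10.32 and 10.18 in rostral cord. Among the arrays labelled rostral 24 h, only array 283 had Abca1 above every rostral sham array. Hoxc10 on that array, at 10.14, lay in the range of the caudal arrays. Scd1 had 12.42, 12.44 and 12.72 in caudal and 12.58, 12.57 and 12.45 in rostral cord, and Scd2 13.59, 13.73 and 13.69 in caudal and 13.57, 13.71 and 13.76 in rostral cord. Npc2 had 12.38, 12.35 and 12.36 in caudal and 12.26, 12.41 and 12.38 in rostral cord, and Stard4 9.27, 9.20 and 9.16 in caudal and 9.0002, 9.12 and 9.22 in rostral cord. In caudal cord Npc2 lay wholly below sham at 24 h, by −0.08, and no gene of this paragraph passed the test.

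Between 24 h and 48 h in rostral cord Lss fell (−0.43 ± 0.08, adjusted p = 0.0132), the only member called, where 0.0165% of all genes fell and 0.346% rose. All 17 enzymes were lower at 48 h than at 24 h, with a median of −0.35 beside −0.02 for all genes, and for 11 of them the arrays did not overlap, as for 6.33% of all genes, while 0 members lay wholly above, as 4.64% of all genes did. Dhcr7 differed by −0.56 ± 0.14, Cyp51 by −0.47 ± 0.14, Idi1 by −0.45 ± 0.12 and Hmgcs1 by −0.44 ± 0.15, with adjusted p-values of 0.122 to 0.41. Lss lost its call without rostral 48 h array 271 or 273 or rostral 24 h array 281 or 283 (adjusted p of 0.0546 to 0.129) and without both arrays numbered 283. The count of 1 was 6 without caudal 48 h array 271, 4 without rostral 48 h array 274 and 2 without caudal 48 h array 274.

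**Figure D4:**
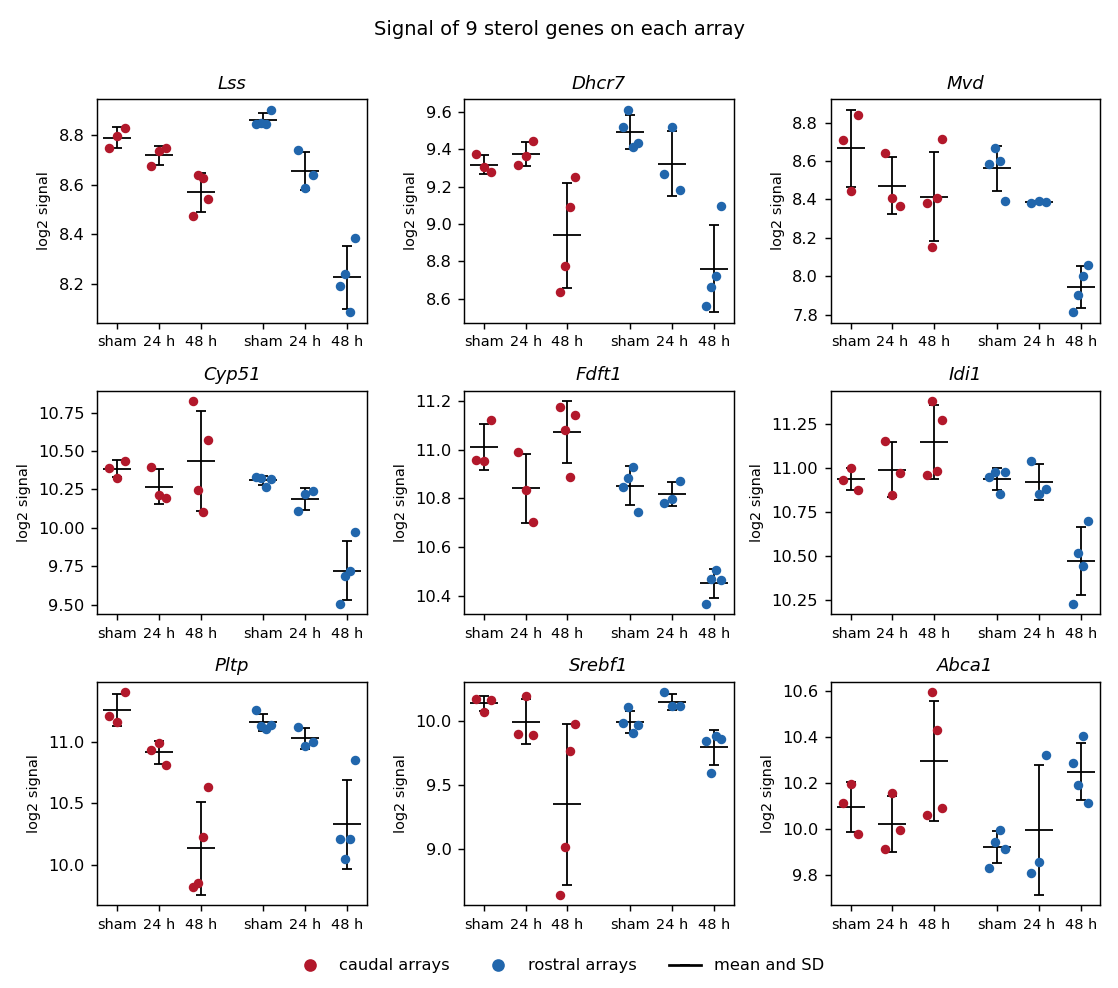
Log2 signal (y axis) of 9 genes on each array at sham, 24 h and 48 h in caudal (red) and rostral (blue) cord, with black marks for the mean and SD of each group. For Lss, Dhcr7, Mvd, Cyp51, Fdft1, Idi1, Pltp and Srebf1 every rostral 48 h array lies below every rostral sham array.

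Among the regulators of SREBP, Srebf1, the SREBP gene of fatty acid synthesis and itself an LXR target, fell in caudal cord at 48 h. It had 8.64, 9.01, 9.77 and 9.98 on caudal 48 h arrays, against 10.18, 10.07 and 10.17 on caudal sham arrays. Arrays 271 and 272 were far lower than 273 and 274, yet all 4 lay below sham, and the difference was −0.79 ± 0.21 (SE, adjusted p = 0.0229). In rostral cord Srebf1 had 9.84, 9.60, 9.88 and 9.86 at 48 h, against 9.99, 10.11, 9.91 and 9.97 in sham without overlap (−0.20 ± 0.20, 95% interval −0.61 to 0.22). The regional difference of the Srebf1 effect was −0.59 ± 0.29 and did not pass (adjusted p = 0.409). The caudal call was lost without caudal 48 h array 272 or any caudal sham array (adjusted p of 0.0521 to 0.0853). Srebf2, the SREBP gene of cholesterol synthesis, had 9.30, 9.97, 10.05 and 9.87 in caudal cord at 48 h, against 10.12, 10.03 and 10.22 in caudal sham (−0.33 ± 0.15, adjusted p = 0.124). In rostral cord Srebf2 had 9.74, 9.74, 9.85 and 10.08, against 10.06, 10.001, 9.88 and 10.02 (−0.14 ± 0.13), and the groups overlapped in both regions.

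Insig1, which retains SREBP and is itself a target of it, was 9.87, 9.84, 9.86 and 9.89 on caudal 48 h arrays, against 10.18, 10.07 and 10.29 on caudal sham arrays (−0.32 ± 0.11, adjusted p = 0.056). On rostral arrays Insig1 was 9.65, 9.60, 9.84 and 9.56, against 10.12, 9.94, 9.86 and 9.95 (−0.30 ± 0.10, adjusted p = 0.273). No array overlapped in either region, and neither difference passed. Insig2 was lower in caudal than in rostral cord at 48 h (−0.36 ± 0.10, adjusted p = 0.0242), a call lost without rostral array 271, 273 or 274 (0.0528 to 0.0686). Against sham Insig2 differed by −0.28 ± 0.10 in caudal and 0.04 ± 0.10 in rostral cord. Scap, the escort of SREBP, differed by −0.55 ± 0.20 in caudal cord, where array 271 stood at 8.83 and the others at 9.998 to 10.18 and the difference without it was −0.24 (adjusted p = 0.024), and by −0.12 ± 0.19 in rostral cord. Of the 5 regulators, 1 fell in caudal and 0 in rostral cord at 48 h, with medians of −0.33 and −0.14, where 7.02% and 0.143% of all genes fell.

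Of the 5 LXR-linked genes, Pltp alone passed against sham. Pltp, which moves phospholipid between lipoproteins, fell in both regions and had the largest difference from sham of any member. It had 9.82, 9.85, 10.23 and 10.63 in caudal cord at 48 h, against 11.21, 11.16 and 11.40 in caudal sham. All clamped arrays lay below sham, array 274 nearest to it, and the difference was −1.12 ± 0.18 (SE, adjusted p = 0.000501), so that the signal fell by 54.1%. In rostral cord it had 10.21, 10.04, 10.21 and 10.85 at 48 h, against 11.26, 11.13, 11.10 and 11.14 in sham, again without overlap and with array 274 nearest (−0.83 ± 0.16, adjusted p = 0.0199). Its second probe set differed by −1.43 in caudal and −0.87 in rostral cord. At 24 h Pltp stood at 10.93, 10.99 and 10.81 in caudal and 11.12, 10.96 and 10.997 in rostral cord. From 24 h to 48 h it fell in caudal cord (−0.78 ± 0.18, adjusted p = 0.0131), where 6.69% of all genes were called, 2.45% lower and 4.24% higher, a call lost without caudal 24 h array 282 or 283 (0.0527 to 0.0735). The caudal call against sham held without any 1 array, and the rostral one was lost without rostral 48 h array 271, 272 or 273 or any rostral sham array (0.0602 to 0.11).

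Abca1, the exporter that loads cholesterol onto apolipoproteins, lay above sham without passing the test. Abca1 had 10.29, 10.19, 10.40 and 10.11 on rostral 48 h arrays, against 9.83, 9.94, 9.997 and 9.91 on rostral sham arrays. The groups did not overlap, and it was the only member with every rostral 48 h array above sham, as 4.63% of all genes were (0.33 ± 0.13, adjusted p = 0.439). Its other probe sets differed by 0.42 and 0.47. In caudal cord Abca1 had 10.06, 10.59, 10.43 and 10.09, against 10.11, 10.19 and 9.98, with overlap (0.20 ± 0.14, adjusted p = 0.294). Abcg1, the exporter to formed lipoproteins, had 9.38, 9.90, 9.87 and 10.68 in caudal cord at 48 h, against 10.38, 10.23 and 10.47 (−0.40 ± 0.18), and 10.26, 10.23, 10.25 and 10.40 in rostral cord, against 10.29, 10.31, 10.21 and 10.32 (0.01 ± 0.17). In caudal cord its array 274 was above all sham arrays and the other 3 below them. Nr1h3, the receptor LXR alpha, had 7.47, 7.04, 6.93 and 6.99 in caudal cord at 48 h, against 7.01, 7.17 and 7.08 (0.02 ± 0.11), and 6.92, 7.04, 7.06 and 7.05 in rostral cord, against 7.14, 7.11, 7.10 and 6.97 (−0.06 ± 0.10). Mylip differed by 0.05 ± 0.12 and −0.004 ± 0.11. Of these 5 genes 1 fell in each region and 0 rose, with medians of 0.02 in caudal and 0.00 in rostral cord, beside −0.10 and −0.40 for the 17 synthesis enzymes. Over all genes 7.02% fell in caudal and 0.143% in rostral cord.

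Of 3 fatty acid genes and 3 genes of sterol transfer and lysosomal release, 1 fell in caudal cord at 48 h (Stard4), where 7.02% of all genes fell, and 0 passed in rostral cord, where 0.143% fell. Fasn, the fatty acid synthase, differed by −0.68 ± 0.22 in caudal cord (adjusted p = 0.0514) and −0.11 ± 0.21 in rostral cord. Without caudal array 271 the caudal difference of Fasn was −0.36 and passed (adjusted p = 0.0316). Scd1, a desaturase, had 11.18, 12.48, 12.59 and 12.36 in caudal cord at 48 h, against 12.59, 12.66 and 12.23 in caudal sham (−0.34 ± 0.23), and 12.37, 12.54, 12.58 and 12.62 in rostral cord, against 12.64, 12.65, 12.47 and 12.71 (−0.09 ± 0.21). Scd2, its brain-rich paralog, had 12.31, 13.44, 13.57 and 13.58, against 13.62, 13.62 and 13.62, in caudal cord (−0.39 ± 0.20), and 13.45, 13.52, 13.69 and 13.70, against 13.64, 13.63, 13.59 and 13.65, in rostral cord (−0.04 ± 0.19). Both desaturases were lowest on caudal array 271, and on the other caudal 48 h arrays Scd1 lay within the range of sham and Scd2 just below it. Without array 271 their caudal differences were −0.02 for Scd1 and −0.09 for Scd2. Stard4, a sterol carrier and SREBP target, fell in caudal cord, with 8.61, 9.14, 8.83 and 8.88 at 48 h, against 9.15, 9.27 and 9.16 in sham (−0.33 ± 0.10, adjusted p = 0.0388). In rostral cord it had 8.85, 8.88, 8.90 and 8.74, against 9.10, 8.99, 9.17 and 9.07, without overlap but without passing (−0.24 ± 0.09, adjusted p = 0.456). The caudal Stard4 call was lost without any of 7 arrays, which were caudal 48 h array 271, the 3 caudal sham arrays, rostral sham arrays 277 and 280 and caudal 24 h array 282 (0.0502 to 0.13). It was also lost with the mean of the gene's probe sets, the others of which differed by −0.22 ± 0.28 and −0.09 ± 0.09. Stard4 also fell between 24 h and 48 h in caudal cord (−0.34 ± 0.10, adjusted p = 0.0478), a call that held without only 2 of the 21 arrays taken one at a time, caudal 48 h arrays 272 and 274. In that comparison 7 members had every 48 h array below every 24 h array and 0 above, beside 6.94% and 5.91% of all genes. Npc1, which moves cholesterol out of lysosomes, was 7.49, 9.26, 9.36 and 9.07 on caudal 48 h arrays, against 9.80, 9.57 and 9.52 (−0.84 ± 0.29, adjusted p = 0.0588), with array 271 far below the others, and −0.40 without that array (adjusted p = 0.0125). Its partner Npc2 was 12.20, 12.51, 12.49 and 12.48 on caudal 48 h arrays, against 12.38, 12.41 and 12.53 (−0.02 ± 0.09), and 12.41, 12.35, 12.28 and 12.25 on rostral 48 h arrays, against 12.31, 12.38, 12.44 and 12.35 (−0.05 ± 0.08).

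In all, 3 of 33 members fell and 0 rose in caudal cord at 48 h, where 12.5% of all genes were called and 7.02% fell, so the share is near that of all genes. For 10 of the 33, every caudal 48 h array lay below sham, beside 11.1% of all genes. The count of 3 was 1 without any caudal sham array, and 6, 7 and 12 without caudal 48 h array 271, 273 or 274. In rostral cord 6 of 33 members fell and 0 rose, where 0.61% of all genes were called, and 19 of 33 had every 48 h array below sham, beside 7.46% of all genes. That count of 6 was 10 without caudal array 271, 3 without rostral 48 h array 271, 272 or 273 or rostral sham array 277 or 279, and 2 without rostral sham array 278. Cell type lists also moved in caudal cord. Of 10 monocyte and macrophage genes 5 rose, and their mean signal was 8.05 to 9.22 at 48 h, against 7.003 to 7.17 in sham. Of 9 endothelial genes 7 fell, with a mean signal of 7.24 to 8.18, against 8.56 to 8.67. Neuron genes, 2 of 9 lower, had 11.47 to 12.54, against 12.64 to 12.74, and array 271 was lowest. Of 7 oligodendrocyte precursor genes 3 fell, namely Gpr17 (−1.66 ± 0.28), Olig2 (−0.95 ± 0.28) and Cspg4 (−0.48 ± 0.13), with departures of −1.68 to −0.05. Of 10 myelin genes 2 fell, Aspa (−1.21 ± 0.28) and Ugt8a (−0.95 ± 0.25). Among 7 microglia genes 2 rose, Fcrls (1.91 ± 0.17) and Olfml3 (0.57 ± 0.13), while 4 lay below 0. Among 6 neutrophil genes 1 rose (Mmp8, 1.71 ± 0.46). Among 9 astrocyte genes Sox9 rose (0.51 ± 0.13) and Fgfr3 fell (−0.80 ± 0.25). Heart muscle genes departed by 0.65 to 2.30 from caudal sham, with 6 of 12 higher and 1 lower. Their part in the caudal falls was not tested.

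Other genes of sterol biology, in 6 lists, were read beside the members, and in caudal cord at 48 h 5 of the lists held called genes. Over all genes 5.52% rose and 7.02% fell there. Ch25h, the hydroxylase that makes an oxysterol known in macrophages to restrain SREBP, rose by 3.96 ± 0.51, and Hsd3b7, of bile acid synthesis, by 1.11 ± 0.22, while Cyp39a1, an oxysterol hydroxylase, had a change of −0.70 ± 0.16. These 3 were the called ones of 6 oxysterol enzymes. Of 7 uptake receptors, the scavenger receptors Msr1 (1.81 ± 0.46), Olr1 (1.79 ± 0.23) and Cd36 (1.34 ± 0.27) rose and Vldlr, a lipoprotein receptor, fell (−0.74 ± 0.18). Of 9 further LXR targets and lipid transporters Apoe (−0.38 ± 0.09) and Abca7 (−0.75 ± 0.19) fell and 0 rose. Among 8 further SREBP targets the desaturase Fads2 fell (−0.999 ± 0.28), and of 4 further genes of sterol synthesis and its acetyl-CoA and electron supply 0 passed over all genes, with a median of −0.38. Of 12 sterol trafficking genes Tspo, a mitochondrial protein also raised in activated microglia, rose (2.08 ± 0.36), and Osbpl1a (−0.71 ± 0.17) and Cav1 (−0.56 ± 0.18) fell.

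In rostral cord at 48 h the one gene called in these lists was Cd36, a fatty acid transporter abundant in heart muscle, which rose by 3.54 ± 0.25 on arrays where 11 of 12 heart muscle genes rose. The part of heart tissue in the Cd36 rise in rostral cord was not tested. Ch25h differed by 1.35 there, the largest difference of the 6 oxysterol enzymes, none of which was called in rostral cord. At 48 h Ch25h was higher in caudal than in rostral cord (2.69 ± 0.47). The difference between its 48 h effects was 2.61, and no oxysterol enzyme passed limma's test of that difference (adjusted p from 0.117). The 48 h effects differed between regions for Olr1 (1.61 ± 0.32) and Cd36 (−2.203 ± 0.36), both of which passed limma's test of that difference over all genes. At 24 h 0 genes of these lists passed in either region.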

How the data were processed

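The authors deposited log2 signals. RMA is the tool named by the submitters' processing notes, and the values were used as they are; no version of RMA and no genome build is given in the sources used here. The authors' file holds 45101 probe sets: 64 controls, 34945 with 1 gene symbol in the platform annotation, 932 with several and 9160 with none listed. The brightest single-symbol probe set over all 22 arrays stood for a gene, which gave 18193 genes. Group means (6 groups, 21 arrays) were estimated in 1 linear model by limma 3.58.1 (R 4.3.3, statmod 1.5.0), and 9 contrasts were tested two-sided, each adjusted over all genes. Contrasts against the same sham arrays share them. The labels do not say that each array is its own animal, so the p-values describe only the variation among the arrays at hand, which may be technical. Title numbers were no block in the reported fit. Deviations of same-numbered arrays from their group means correlated at −0.45 to 0.53 over 10 pairs. The −0.45 came from the arrays numbered 283, which went against their region labels, so it cannot speak to pairing. The 48 h pairs gave 0.25 to 0.53 and the other pairs −0.19 to 0.28. The numbers were not taken as pairs.

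Every array was given for members that passed against sham and for Hmgcs1, Sqle, Idi1, Srebf1, Srebf2, Insig1, Scd1, Scd2, Nr1h3, Abca1, Abcg1 and Npc2. Members and lists were chosen with earlier results of these data known. No read depth exists for arrays, and their number limits precision.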

Additional observations from a re-analysis of the deposited data

Results flagged for a closer look

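Within groups of 4 arrays, 13 of 99 combinations of member and group had 1 array set far from the other 3 by Dixon's criterion, which chance meets in about 5%. Of these, 5 were low values on caudal 48 h array 271: Scap at 8.83 (the others 9.998 to 10.18), Scd1 at 11.18 (12.36 to 12.59), Scd2 at 12.31 (13.44 to 13.58), Npc1 at 7.49 (9.07 to 9.36) and Npc2 at 12.20 (12.48 to 12.51). Hsd17b7 was high on caudal 48 h array 272, at 9.89 (9.63 to 9.67). Among rostral 48 h arrays, array 274 was high for Sqle at 10.82 (10.53 to 10.57) and for Abcg1 at 10.40 (10.23 to 10.26), array 272 was low for Srebf1 at 9.60 (9.84 to 9.88), and array 271 was high for Insig2 at 10.29 (10.16 to 10.18) and low for Nr1h3 at 6.92 (7.04 to 7.06). In rostral sham, Lss was high on array 280 at 8.90 (8.85 to 8.85) and Cyp51 low on array 279 at 10.27 (10.32 to 10.33).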

How the results depend on the processing

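Most counts changed with the model of the spread and with single arrays, and the directions of called members held. Of 20 calls of a member in a comparison, 1 (Dhcr7 in rostral cord at 48 h) stayed past the threshold under every alternative run and 19 were lost under at least 1. Uncalled values changed sign in many cases, and Cyp51 in caudal cord at 48 h passed with the opposite sign under array weights (−0.23).

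Under array weights the members called were 13 (caudal 48 h against sham), 18 (rostral 48 h, 14 of them lower synthesis enzymes), 8 and 10 (48 h against 24 h, caudal and rostral), 14 (caudal against rostral at 48 h), 1 (the same in sham) and 10 (difference of the 48 h effects). Calls over all genes rose as well, to 6245 (caudal 48 h against sham), 1850 (rostral 48 h), 4067 and 1124 (48 h against 24 h), 1256 (sham regions) and 1363 (difference of effects). With only the compared groups fitted the members called were 0, 11 (9 lower enzymes), 0, 0 and 0 for the first 5 of these comparisons. Without caudal arrays 271, 274 and 280 they were 7, 13 (12), 7, 9 and 15, and 6 for the difference of effects. When probe sets of a gene were averaged they were 5 in caudal and 3 in rostral cord against sham (3 lower enzymes), and 0 for rostral 48 h against 24 h. Without both arrays numbered 283 both time comparisons gave 0. Array 276 as 48 h gave 2 in rostral cord against sham (2 lower enzymes) and 0 against 24 h. With eBayes trend and robust, caudal 48 h against 24 h gave 1. For the difference of effects, centred arrays gave 1, repeated quantile normalization 2, and the title number as a random or as a fixed replicate block 1 each (Idi1, adjusted p = 0.0268 and 0.0453). Insig2 in caudal against rostral cord at 48 h lost its call with the fixed replicate block (adjusted p = 0.0607) and kept it with the random one (0.014). With the replicate block no other count of members moved by over 1.5 times. Without both arrays numbered 271, an alternative chosen after seeing the data, caudal 48 h against sham gave 6 and the difference of effects 2.

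Leaving out each array in turn gave 1 to 12 members in caudal and 2 to 10 in rostral cord at 48 h against sham (2 to 9 lower enzymes), 0 to 7 and 0 to 6 for 48 h against 24 h, 6 to 13 for caudal against rostral cord at 48 h, and 0 to 5 for the difference of effects; both 24 h comparisons and the sham regions gave 0 throughout. For caudal 48 h against 24 h the reported 2 was 7 without caudal 48 h array 273 or 274, 0 without caudal 24 h array 282 or 283, and 1 without any of 14 others. For caudal against rostral cord the reported 8 was 13 without caudal array 274. The causes were not tested.

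Counts over all genes moved as well: 2282 in caudal cord at 48 h against sham ranged from 142 (only those groups fitted) to 6245 (array weights), and 111 in rostral cord from 35 (brighter genes only, which tests fewer genes) to 1850 (array weights). Between the regions at 48 h, 1766 ranged from 93 to 3801, and 102 for the difference of effects from 19 to 1363. For 48 h against 24 h, 1218 in caudal cord ranged from 0 to 4067, and 66 in rostral cord from 13 to 1124. Detection calls were not used here, so low signals could not be set against background.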
